A study of Mus musculus with 8 samples.

Results

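The solute carriers are the genes whose symbol has the form Slc, family number, letter and member number. They were chosen by their level in induced cells, where the mean of the GFP-OE and KLF3-OE values after 72 h of induction was at least 1 FPKM (fragments per kilobase of transcript, scaled to the number of mapped fragments). This rule gave 190 genes in 43 numbered families, of 253 such symbols and of 11179 genes with the same minimum level in that table. Among them, 4 symbols encode no transporter, namely the scaffold proteins Slc9a3r1 and Slc9a3r2 and the genes Slc7a6os and Slc4a1ap, which were named after a neighbour or partner. The values nearest the minimum were 1.045 FPKM for Slc22a23, 1.06 for Slc17a7 and 1.10 for Slc4a5 on the inside, and 0.995 for Slc47a1, 0.935 for Slc6a7 and 0.925 for Slc16a11 on the outside.

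Solute carriers are membrane proteins that move nutrients, ions, metals, vitamins and metabolites across the cell surface and across the membranes of mitochondria, the Golgi apparatus, the endoplasmic reticulum and lysosomes. Most work as facilitators, as exchangers, or as cotransporters driven by the sodium or proton gradient. Pluripotent cells depend on high uptake of glucose and amino acids, and yolk sac endoderm is known as an absorptive and secretory epithelium.

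RNA was sequenced from 8 samples of mouse embryonic stem cells (mESCs) in 4 groups of 2, all C57BL/6(F) x 129/sv(M), all labelled as 3.5 days of development and all grown in serum medium with LIF. In the first experiment, mESCs carried a reporter in which the N-terminal part of KLF3, without its DNA-binding domain, is joined to GFP under the CAGGS promoter, and samples of 500 sorted KLF3-GFP-negative or KLF3-GFP-positive cells were sequenced. All sorted cells also carried DsRed under the EF1α promoter. In the second, R26 mESCs with M2rtTA at Rosa26 and an FRT site at Col1a1 were induced with doxycycline for 72 h to express GFP (GFP-OE) or a codon-optimized Klf3 (KLF3-OE). Cell lines of both kinds were established from picked colonies, and feeder cells were present when the induced lines were derived. KLF3, a zinc-finger transcription factor, was compared in these experiments by its reporter level and by its forced expression. Klf3 itself was at 107 FPKM in KLF3-GFP-negative against 122 in KLF3-GFP-positive cells, and at 58.7 in GFP-OE and 47.8 in KLF3-OE cells. The reporter holds part of the Klf3 sequence, so the former values may include its transcript, and the induced copy is codon-optimized, so the latter do not check the induction.

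Each table gave 1 value for a gene and condition, the authors' mean of 2 samples. No value therefore has an error here, no test was possible and no difference has a replicate check. A gene was called higher or lower where log2(FPKM + 1) differed by more than a 2-fold change and the mean level was at least 1 FPKM; on this scale the change of a low gene is understated. Where a pair of levels is given without group names, KLF3-GFP-negative comes before KLF3-GFP-positive and GFP-OE before KLF3-OE. A difference on or after induction is that of KLF3-OE against GFP-OE cells. Both were induced, and no uninduced sample of these lines was available. Fewer cells of a type and less RNA per cell cannot be told apart in such bulk samples. Of 22 primitive and visceral endoderm markers, 18 could be measured in sorted cells, where 15 were higher and 2, Apoa1 and Apoa2, lower in KLF3-GFP-positive cells, and the summed marker level went from 151 to 2090 FPKM. All 19 that could be measured after induction were higher in KLF3-OE cells, with a summed level of 284 FPKM in GFP-OE and 1086 in KLF3-OE. In KLF3-GFP-negative cells Foxa2, Hnf4a, Cubn and Ttr stood at the lowest listed value, 0.10 FPKM, while others were present, such as Gata4 at 1.07, Gata6 at 1.63, Sox17 at 2.76 and Sparc at 33.5 FPKM. Of 12 mESC markers, 7 were lower and 1 higher in KLF3-GFP-positive cells, and 3 were lower in KLF3-OE cells. Of 6 trophoblast markers, 3 were higher and 1, Ascl2, lower in KLF3-GFP-positive cells, and 4 of 8 were higher on induction. The only fibroblast marker measured in sorted cells, Vim, was lower, at 12.4 and 4.15 FPKM, and none of 3 was called on induction. Of 2 macrophage and blood markers in sorted cells, Cd68 was higher, at 4.50 and 15.04 FPKM. The part of these cell types in the solute carrier values was not tested.

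Higher carriers outnumbered lower ones in KLF3-GFP-positive cells. Of the 190 genes, 186 were listed in the sorted-cell table and 137 reached the minimum there. Among these 137, 45 (32.8%) were higher and 6 (4.38%) lower in KLF3-GFP-positive cells, beside 13.8% higher and 8.32% lower over all 9212 genes compared. Restricted to genes that also had the minimum level in the induction experiment, the shares over all genes were 13.4% and 8.11%. The median difference was 0.41 on the log2 scale for the 137 carriers and 0.03 for all genes. Carriers that cleared the minimum only through the higher group had to differ, and 16 of the 45 were under 1 FPKM in KLF3-GFP-negative cells. With at least 1 FPKM required in both groups, 29 of 107 carriers (27.1%) were higher and 3 lower, beside 11.6% and 6.79% of all genes. Without any minimum, 46 of the 186 listed carriers (24.7%) were higher and 7 (3.76%) lower, beside 10.1% and 6.20% of all genes listed.

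Few carriers were called in KLF3-OE against GFP-OE cells, in shares below those of all genes in both directions. In KLF3-OE cells 6 of the 190 carriers (3.16%) were higher and 12 (6.32%) lower, beside 6.59% and 10.1% of all 11179 genes. All genes together were shifted downward in this experiment, with a median of −0.18 on the log2 scale, and the carriers had a median of −0.22. Relative to the median of all genes, 93 carriers lay above and 97 below. After scaling each sample group by the median ratio of its genes, 10 carriers were higher and 9 lower, beside 10.4% and 6.22% of all genes. The carriers held 0.382% of the table's total in KLF3-GFP-negative, 0.414% in KLF3-GFP-positive, 0.567% in GFP-OE and 0.418% in KLF3-OE cells. The summed level of the carriers themselves was 3474 FPKM in GFP-OE and 3492 in KLF3-OE cells, while the sum over the whole table was 612621 and 834882 FPKM. The sum is dominated by few genes, since the top 5 carriers held 77.4% of it in KLF3-GFP-negative and 36.7% in GFP-OE cells.

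Across both experiments, 4 carriers were higher in KLF3-GFP-positive and in KLF3-OE cells. They make up 8.89% of the 45 carriers higher in sorted cells and 66.7% of the 6 higher after induction. For all genes measured in both experiments, the shared 227 genes make up 19.1% and 33.1% of those lists. Slc44a3, a choline transporter-like protein (mm10, chr3:121459528-121532404), was at 1.27 FPKM in KLF3-GFP-negative against 65.8 in KLF3-GFP-positive cells, a log2 difference of 4.88, and at 4.72 in GFP-OE and 16.3 in KLF3-OE cells, a log2 difference of 1.60. On this scale these were the highest differences of any carrier in either experiment, whereas the plain ratio on induction was 3.45 for Slc44a3 and 7.05 for Slc39a8. Slc39a8, which imports zinc, manganese and iron (chr3:135825279-135888572), was at the lowest listed value in KLF3-GFP-negative and at 5.13 FPKM in KLF3-GFP-positive cells. It was at 0.38 FPKM in GFP-OE and 2.68 in KLF3-OE cells. Slc13a5, the sodium-dependent citrate transporter (chr11:72241994-72267222), was likewise at the lowest listed value in KLF3-GFP-negative and at 3.27 FPKM in KLF3-GFP-positive cells. It was at 0.86 FPKM in GFP-OE and 3.54 in KLF3-OE cells. Slc40a1, or ferroportin, the only known cellular iron exporter (chr1:45908068-45926523), was at 0.22 and 1.96 FPKM in sorted cells and at 0.42 and 1.95 FPKM in induced cells. Apart from Slc44a3, the genes of this group were low in every condition, with no value above 5.13 FPKM. Slc39a8, Slc13a5 and Slc40a1 were under 1 FPKM in KLF3-GFP-negative and in GFP-OE cells. They cleared both minimums only through the higher groups, which limits the reading of the shared percentages. Of the 4, only Slc44a3 had at least 1 FPKM in every group. With that requirement 2 carriers in all were higher on induction.

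The promoters of Slc44a3, Slc39a8 and Slc13a5, 3 of these 4 carriers, are shown because they moved the same way with both the KLF3 reporter and induced KLF3. Each sequence is the stretch of 250 bases before the RefSeq start (GRCm38.p6), 5′ to 3′ on the gene's strand, with CACCC and the looser CCNCNCCC pattern, searched on both strands, in capitals. CACCC matches a common KLF recognition core, and a match can belong to both patterns. They lie at chr3:121532345-121532594 on the minus strand, chr3:135825029-135825278 on the plus strand and chr11:72267162-72267411 on the minus strand.
Slc44a3: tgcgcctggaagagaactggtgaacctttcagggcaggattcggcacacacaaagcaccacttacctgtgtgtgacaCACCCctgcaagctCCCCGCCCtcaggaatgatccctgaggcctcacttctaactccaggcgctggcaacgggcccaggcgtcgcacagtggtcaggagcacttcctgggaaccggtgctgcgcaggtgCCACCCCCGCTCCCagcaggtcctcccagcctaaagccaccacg
Slc39a8: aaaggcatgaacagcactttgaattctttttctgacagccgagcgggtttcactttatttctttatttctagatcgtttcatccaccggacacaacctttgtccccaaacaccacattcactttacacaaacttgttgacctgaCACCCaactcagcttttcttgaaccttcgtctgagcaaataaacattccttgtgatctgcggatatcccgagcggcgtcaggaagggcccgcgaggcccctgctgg
Slc13a5: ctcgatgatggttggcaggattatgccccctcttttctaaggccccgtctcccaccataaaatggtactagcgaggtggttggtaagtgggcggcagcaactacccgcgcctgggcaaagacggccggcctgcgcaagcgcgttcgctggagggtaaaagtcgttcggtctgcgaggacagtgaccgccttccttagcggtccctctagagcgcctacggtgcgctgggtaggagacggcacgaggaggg
The Slc44a3 window held 2 matches of CACCC and 3 of CCNCNCCC, the Slc39a8 window 1 match of CACCC, and the Slc13a5 window no match of either. Promoter windows were found for 145 of the 190 carriers. CACCC was in 65.0% of their 197 windows and in 52.01% of the 32851 windows of all genes, and CCNCNCCC was in 73.6% and 45.9%. The windows of all genes had no minimum level and were not matched in base composition, whereas the carriers were chosen by level. These shares therefore do not show an excess of the patterns in carriers over other expressed genes. Windows of carriers higher in KLF3-GFP-positive cells held CACCC in 65.4% of 52 cases and those of measured but uncalled carriers in 63.3% of 90, and CCNCNCCC in 71.2% and 74.4%. On induction CACCC was in 85.7% of the 7 windows of higher carriers and 72.7% of the 11 of lower ones, and CCNCNCCC in 71.4% and 72.7%.

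**Figure D1:**
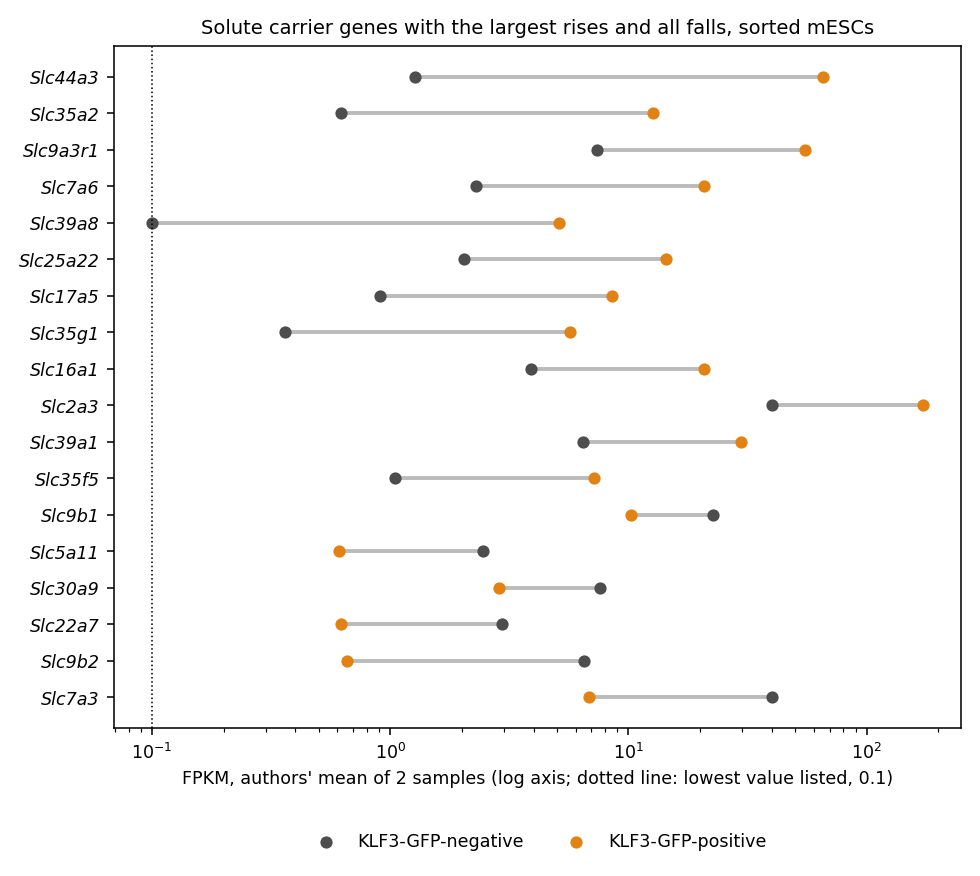
FPKM (log axis) of the 12 solute carriers with the largest rises and of all 6 with falls in sorted mESCs, with grey points for KLF3-GFP-negative and orange points for KLF3-GFP-positive cells and 1 mean per point. Slc44a3 goes from 1.27 to 65.8 FPKM, and Slc7a3 and Slc9b2 cross in the opposite direction.

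Amino acid carriers differed in both directions in sorted cells. Of 18 measured, 7 were higher and 1 lower in KLF3-GFP-positive cells. Family Slc7 had a median of 1.42 on the log2 scale over 5 measured genes, and family Slc38 one of 0.54 over 7. The Slc7 median depended on the minimum. It was 0.91 over all 6 listed carriers of the family and 0.46 over all its listed symbols. The 5 measured genes include Slc7a6os, which encodes no transporter, at 0.40. Slc7a6, a light chain that pairs with Slc3a2 and exchanges cationic for neutral amino acids, was at 2.30 FPKM in KLF3-GFP-negative against 20.8 in KLF3-GFP-positive cells. Slc7a7, a light chain with the same partner and exchange mode, was at 4.36 and 13.4 FPKM. The shared heavy chain Slc3a2 was at 79.1 and 90.8 FPKM and was not called. Cationic amino acid uptake is served by Slc7a1 and Slc7a3, and these differed in opposite directions. Slc7a1 was at 1.60 and 6.21 FPKM, whereas Slc7a3 was at 40.1 in KLF3-GFP-negative against 6.81 in KLF3-GFP-positive cells, a difference of −2.40 on the log2 scale. This was the largest fall with a pseudocount of 1 FPKM, but the plain ratio was 5.89 for Slc7a3 and 9.91 for Slc9b2. Slc38a1 and Slc38a2, sodium-coupled importers of glutamine and other neutral amino acids, were at 3.49 and 8.65 and at 5.74 and 13.2 FPKM. The lysosomal glutamine exporter Slc38a7 was at 1.84 and 6.30 FPKM. The glutamine importer Slc1a5 was at 18.2 in KLF3-GFP-negative against 9.37 in KLF3-GFP-positive cells, just short of a call at −0.89. Slc6a8, the X-linked creatine transporter, was at 2.21 and 10.6 FPKM. Of the 5 measured carriers listed as responsive to the stress-induced transcription factor ATF4, Slc7a1 and Slc38a2 were higher, Slc7a3 lower, and Slc1a5 and Slc3a2 were not called.

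Sugar and monocarboxylate carriers split by isoform. The neuronal-type, high-affinity glucose transporter Slc2a3 (chr6:122727809-122801640) was at 40.2 FPKM in KLF3-GFP-negative against 172 in KLF3-GFP-positive cells, a difference of 2.07 on the log2 scale. The widely expressed glucose transporter Slc2a1 was at 29.7 and 20.1 FPKM and was not called. Slc16a1, a lactate and pyruvate transporter, was at 3.89 and 20.8 FPKM, while Slc16a3, the lactate exporter of glycolytic cells, was at 7.13 and 6.47 FPKM. Carriers were classed by family number, so family Slc5 brings carriers of vitamins, choline and inositol into the sugar class. Of all 9 measured in this class, 4 were higher and 1 was lower, with a median of 0.63 on the log2 scale. Over the 5 with at least 1 FPKM in both groups the median was −0.004. The one lower was the sodium-coupled inositol transporter Slc5a11, at 2.45 and 0.61 FPKM. Slc37a2 and Slc37a4, sugar phosphate carriers of the endoplasmic reticulum, were at 0.43 and 3.90 and at 0.81 and 4.04 FPKM, and the sugar efflux carrier Slc50a1 was at 18.3 and 52.2 FPKM. Of these, Slc37a2 and Slc37a4 cleared the minimum only through KLF3-GFP-positive cells. The partner proteins of the monocarboxylate carriers, Bsg and Emb, were at 426 and 861 and at 33 and 93.1 FPKM in the same cells.

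Family Slc35 holds the carriers of nucleotide sugars, which supply glycosylation in the Golgi apparatus and endoplasmic reticulum, and relatives of other or unsettled substrate. In the whole family, 8 of 17 measured were higher, none lower, and 15 lay above 0, with a median of 0.95 on the log2 scale. In its subfamilies A to D, 4 of 11 were higher, with a median of 0.69. Of these 4, only Slc35b1 had at least 1 FPKM in KLF3-GFP-negative cells. The others, Slc35a2, Slc35b3 and Slc35c1, cleared the minimum only through the higher group. Over the 7 genes of these subfamilies with at least 1 FPKM in both groups the median was 0.58. Slc35f2 went the other way, at 3.43 and 1.45 FPKM, which was past the limit as lower only with a pseudocount or floor of 0.1. With at least 1 FPKM in both groups the median of the whole family was 0.63 over 12 genes. Slc35a2, the X-linked UDP-galactose transporter of the Golgi apparatus, was at 0.62 FPKM in KLF3-GFP-negative against 12.7 in KLF3-GFP-positive cells. Slc35b1, which carries adenine nucleotides into the endoplasmic reticulum, was the most abundant of the family at 24.9 and 78.0 FPKM. The GDP-fucose transporter Slc35c1 was at 0.53 and 2.39 FPKM. Slc35g1 was at 0.36 and 5.69 FPKM, Slc35f5 at 1.05 and 7.15 and Slc35f6 at 1.01 and 6.91. The CMP-sialic acid transporter Slc35a1 was at 9.75 and 10.9 FPKM and was not called, so the higher values did not extend to the whole family. Within a broader list of endoplasmic reticulum and Golgi carriers, 10 of 22 measured were higher, 20 lay above 0 and none was called lower. The share higher over all genes was 13.8%. Of the higher ones, Slc35a2, Slc35b3, Slc35c1, Slc33a1, Slc37a2, Slc37a4 and Slc30a7 cleared the minimum only through KLF3-GFP-positive cells. The median of the list was 0.92, and 0.67 over the 13 with at least 1 FPKM in both groups. The list includes much of family Slc35. Slc33a1, which brings acetyl-CoA into the endoplasmic reticulum, was at 0.54 and 4.71 FPKM.

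Metal carriers also lay mostly upward, with 10 of 20 measured higher and 1 lower. In family Slc39, whose members bring zinc and related metals into the cytosol, 5 of 10 were higher, none lower and 9 lay above 0, with a median of 0.91 on the log2 scale and of 0.81 over the 8 with at least 1 FPKM in both groups. Beside Slc39a8, these were Slc39a1 at 6.46 and 29.7 FPKM, Slc39a4 at 4.62 and 20.4, Slc39a7 at 11.7 and 34.5, and Slc39a13 at 1.06 and 3.86. Slc39a1 and Slc39a4 act at the cell surface, whereas Slc39a7 and Slc39a13 release zinc from the endoplasmic reticulum and Golgi apparatus. Family Slc30, which carries zinc out of the cytosol, gave 1 call in each direction. Slc30a7 of the Golgi apparatus was at 0.61 and 3.46 FPKM, and Slc30a9 was at 7.60 in KLF3-GFP-negative against 2.85 in KLF3-GFP-positive cells. The copper importer Slc31a1 was at 5.64 and 19.99 FPKM and its endosomal relative Slc31a2 at 4.25 and 11.6. Of 7 iron and haem carriers, 3 were higher, and these were Slc39a8, Slc40a1 and the iron importer Slc11a2, at 1.82 and 4.74 FPKM.

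Mitochondrial carriers of family Slc25 were the most abundant group and centred near no difference. Over 29 measured genes the median was 0.04 on the log2 scale, 4 were higher and none lower. The ADP/ATP carriers Slc25a5 and Slc25a4 went apart, with Slc25a5 at 1671 FPKM in KLF3-GFP-negative against 1199 in KLF3-GFP-positive cells and Slc25a4 at 326 and 664 FPKM. The phosphate carrier Slc25a3 was at 451 and 464 FPKM. Slc25a22, a glutamate carrier, was at 2.04 and 14.3 FPKM, the citrate carrier Slc25a1 at 34.7 and 78.7, and the dicarboxylate carrier Slc25a10 at 0.45 and 2.89. Slc25a4 lay at 1.03, close to the limit of the call, and was at 0.99 after median-ratio scaling.

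Among the remaining classes, ion and organic anion carriers were called in both directions. Family Slc9 of sodium/proton exchangers had 2 higher and 2 lower of 7 measured. The lower ones were Slc9b2, at 6.54 in KLF3-GFP-negative against 0.66 in KLF3-GFP-positive cells, and Slc9b1, at 22.7 and 10.3 FPKM. The higher ones included Slc9a3r1, at 7.39 and 55.2 FPKM. Slc9a3r1 is not a transporter but a scaffold that links transporters and other membrane proteins to ezrin and actin at the apical membrane. Slc22a7, an organic anion transporter, was at 2.96 and 0.62 FPKM. Slc17a5, which exports sialic acid from lysosomes, was at 0.91 and 8.56 FPKM. Of 7 measured lysosomal and endosomal carriers, 5 were higher and none lower, among them Slc17a5, Slc38a7, Slc31a2 and Slc11a2. The proton-coupled folate transporter Slc46a1 was at 3.17 and 9.32 FPKM. None of the 3 measured nucleoside carriers was called, and the abundant Slc29a1 was at 70.5 and 76.7 FPKM.

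**Figure D2:**
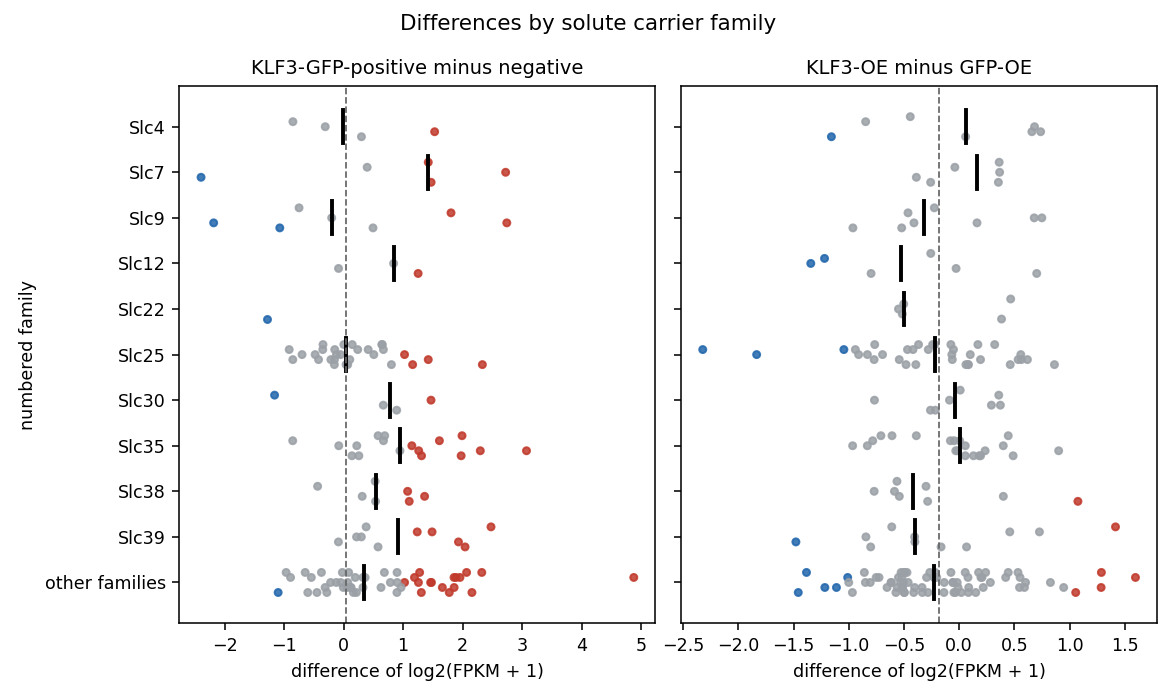
Difference of log2(FPKM + 1) for each gene in sorted cells (left) and after induction (right), by numbered families with at least 5 carriers and all others together; red points were called higher, blue lower and grey neither. Black bars are medians, drawn for at least 3 genes, the dashed line is the median of all genes compared, and the vertical offset only separates points. Of the families with at least 5 carriers measured in sorted cells, Slc7, Slc35, Slc38 and Slc39 lie mostly right of the dashed line there. On induction most families straddle it.

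On induction the carriers called higher were few and mostly low. Besides the 4 described above, these were Slc26a6, an exchanger of chloride, oxalate and bicarbonate, at 5.25 FPKM in GFP-OE and 14.2 in KLF3-OE cells, and Slc38a5, an X-linked glutamine transporter, at 0.41 and 1.97 FPKM. Of the 6, 4 were under 1 FPKM in GFP-OE cells. The Y-linked Ddx3y and Uty were at 3.34 and 3.56 FPKM in GFP-OE and at the lowest listed value in KLF3-OE cells, while Eif2s3y was at 30.9 and 1.67. The 10 X-linked carriers had a median difference of −0.14 and all 361 X-linked genes one of −0.29. The part of the sex chromosomes in the values of Slc38a5 and other X-linked carriers was not tested. GFP-OE and KLF3-OE cells thus differed in Y-linked RNA as well as in the induced gene. For every carrier, X-linked or not, induced KLF3 and other differences between the lines cannot be told apart here.

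The 12 lower carriers included several with high levels in control cells. Slc25a36, which carries pyrimidine nucleotides across the inner mitochondrial membrane (chr9:97074961-97111157), was at 72.3 FPKM in GFP-OE and 19.6 in KLF3-OE cells. Slc25a30 was at 5.40 and 0.28 FPKM, the largest fall at −2.32 on the log2 scale. The aspartate/glutamate carrier Slc25a12 was at 16.6 and 7.53 FPKM. Slc1a5, the main glutamine importer of many proliferating cells (chr7:16781346-16798274), was at 80.3 and 30.2 FPKM. The taurine transporter Slc6a6 was at 22.4 and 9.07 FPKM. Both oligopeptide transporters Slc15a1 and Slc15a2 were lower, at 3.53 and 0.65 and at 4.25 and 1.43 FPKM. The potassium-chloride cotransporter Slc12a7 was at 22.5 and 9.11 FPKM. Slc4a7, which imports sodium and bicarbonate, was at 5.20 and 1.78 FPKM, the zinc importer Slc39a10 at 9.06 and 2.61, and Slc27a2, which takes up and activates very long-chain fatty acids, at 3.51 and 1.24.

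**Figure D3:**
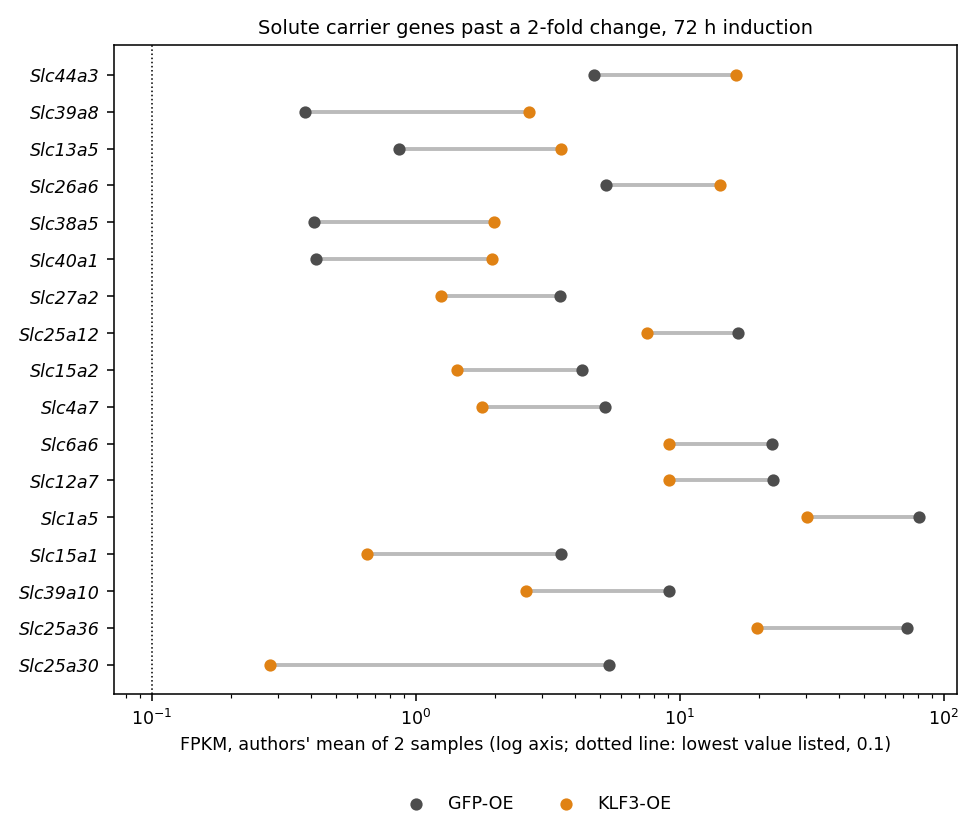
FPKM (log axis) of 17 solute carriers called after 72 h of induction, with grey points for GFP-OE and orange points for KLF3-OE cells and 1 mean per point. The 6 higher carriers end at 16.3 FPKM or less, and Slc1a5 and Slc25a36 start at 80.3 and 72.3 FPKM.

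The carriers with the highest levels were not called on induction. Slc25a5 was at 536 FPKM in GFP-OE and 512 in KLF3-OE cells, Slc25a3 at 212 and 312, Slc25a4 at 192 and 295, and Slc25a39, which imports glutathione into mitochondria, at 141 and 258. Glucose transporters had the opposite order to sorted cells. Slc2a3 was at 192 in GFP-OE and 135 in KLF3-OE cells, and Slc2a1 at 100.3 and 147 FPKM, neither past the limit. Slc3a2 was at 85.8 and 97.0 FPKM, Slc16a1 at 27.4 and 36.95, Slc16a3 at 34.98 and 33.8, and Slc7a3 at 26.7 and 20.2. After median-ratio scaling Slc25a39 (1.07) and Slc6a8 (1.02, at 12.5 and 22.95 FPKM) passed the limit as higher, while Slc15a2, Slc25a12 and Slc27a2 no longer passed as lower.

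Families differed in their medians after induction, with few calls in any of them. Family Slc35 had a median of 0.00 with 15 of 21 genes above the median of all genes and none called. Its largest difference was that of Slc35f2, at 29.02 FPKM in GFP-OE and 14.4 in KLF3-OE cells. Family Slc25 had a median of −0.22 with 3 of 35 lower, and family Slc39 one of −0.40 with 1 call in each direction among 11. Family Slc12 had the lowest median of those with at least 5 genes, −0.53. Family Slc7 had the highest, 0.16, with none of 6 called, but these include Slc7a6os, which encodes no transporter, at 0.36. Without Slc7a6os the middle value of the family is that of Slc7a6, −0.04, which is below the median of family Slc35. Lysosomal and endosomal carriers lay low, with a median of −0.59 over 11 genes, 2 of them above the median of all genes and none called. Slc46a3 lay exactly at the limit, at 2.06 and 0.53 FPKM. The endoplasmic reticulum and Golgi carriers had a median of 0.03 over 26 genes with no call. Of 7 carriers listed as responsive to ATF4, only Slc1a5 was called.

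**Figure D4:**
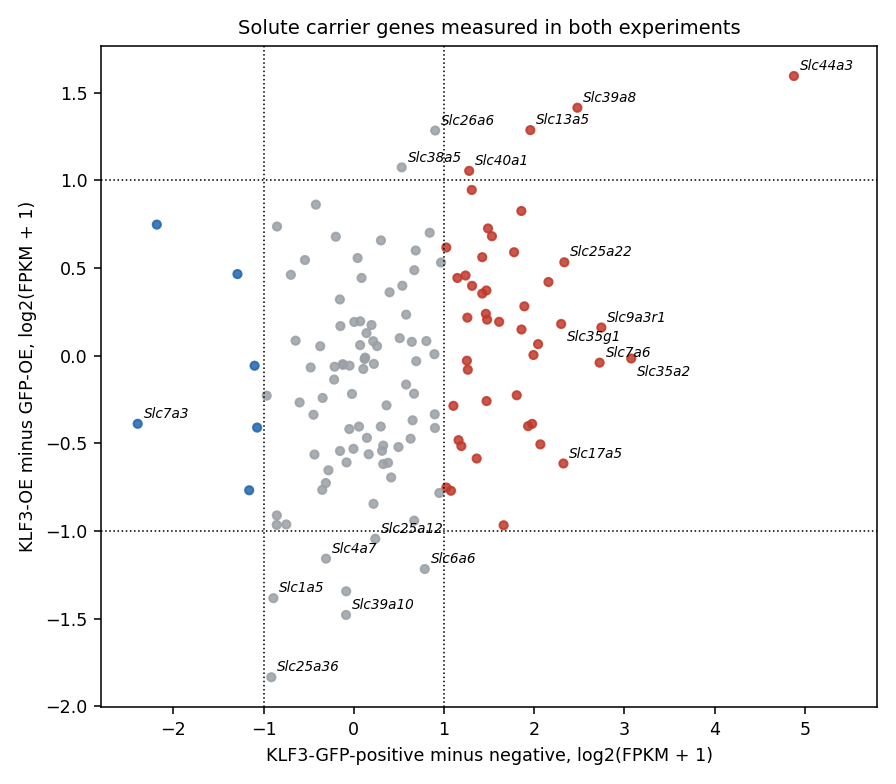
Difference of log2(FPKM + 1) in sorted cells (x axis) against that after induction (y axis) for the 137 solute carriers measured in both; points are coloured red, blue or grey by the call in sorted cells, and dotted lines mark a 2-fold change. The 4 carriers in the upper right corner are higher in both, and the other 3 corners are empty.

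The differences of single carriers in both experiments were loosely related. Over the 137 carriers measured in both, Pearson's r was 0.33 and Spearman's rho 0.29, as a description across genes that come from the same few libraries and are not independent. Of the 45 carriers higher in sorted cells, 32 lay above the median of all genes after induction and 13 below, 41 were not called there and none was called lower. None of the 6 lower in sorted cells was called after induction. Of the 12 lower after induction, 7 were measured in sorted cells and none was called there. Slc25a36, at 14.6 and 7.28 FPKM in sorted cells, and Slc1a5 lay close to the limit. With quantile normalization both passed it as lower in sorted cells, and Slc25a36 also with a floor of 0.1, so the absence of shared falls depends on the setting. Slc2a3, Slc7a6 and Slc35a2 had some of the larger rises in sorted cells and lay at −0.51, −0.04 and −0.02 on induction. Slc17a5 was at 2.2 and 1.09 FPKM in induced cells, a difference of −0.61 that was not called. Slc9b2, one of the larger falls in sorted cells, was at 1.28 and 2.83 FPKM on induction, also not called. Levels also differed between the experiments, with a median over carriers of 1.605 FPKM in KLF3-GFP-negative, 2.71 in KLF3-GFP-positive, 5.25 in GFP-OE and 4.575 in KLF3-OE cells; library protocols differed and the tables were made separately.

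**Figure D5:**
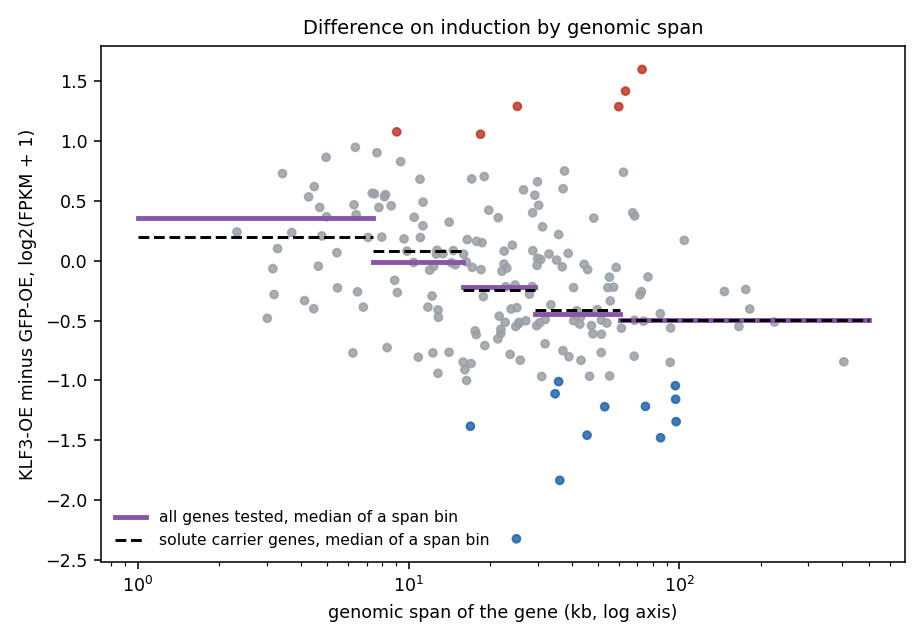
Difference of log2(FPKM + 1) after induction against the genomic span of each solute carrier (kb, log axis), with red and blue points called higher and lower. Solid lines are the medians of all genes compared in 5 equal bins of span and dashed lines those of the carriers; both descend from the shortest to the longest bin.

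The differences after induction moved with gene span. In 5 equal bins of the genomic span of all genes, from short to long, the medians of all genes were 0.35, −0.01, −0.22, −0.44 and −0.49, and those of the carriers 0.20, 0.08, −0.25, −0.41 and −0.50. In sorted cells the medians over the same bins were 0.93, 0.60, 0.48, 0.31 and 0.22 for the carriers and −0.03, −0.01, 0.03, 0.06 and 0.14 for all genes. The lower calls among carriers on induction numbered 0, 0, 2, 5 and 5 in these bins, and the shortest carrier called lower spans 16.9 kb. With the trend of all genes on span removed, 8 carriers were higher and 4, Slc25a30, Slc25a36, Slc1a5 and Slc15a1, lower. Carriers called higher had a median span of 42.5 kb, those called lower one of 49.3 kb and all carriers one of 23.8 kb. The part of span in the lower carriers was otherwise not tested.

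Genes that work with the carriers were counted from lists of their own, of which the partner list includes Slc3a2, Slc9a3r1 and Slc9a3r2 of the carriers. The lists are short, and the shares over all genes were 13.8% higher and 8.32% lower in sorted cells. On induction these shares were 6.59% higher and 10.1% lower. Of 9 measured transporters with other symbols, 1 was higher in sorted cells, the prostaglandin transporter Slco2a1, from the lowest listed value to 3.48 FPKM. It was also higher on induction, at 0.23 and 2.52 FPKM, as was the mitochondrial pyruvate carrier subunit Mpc2, at 9.31 and 27.8, while Slco4c1 was lower, at 1.77 and 0.29. Of 12 partner and regulatory proteins in sorted cells, 4, Slc9a3r1, Emb, Bsg and the kinase Stk39, were higher and 1 lower, the last being Txnip, which promotes the internalization of glucose transporters, at 58.3 and 21.5 FPKM. On induction 2 of 15 were lower, the scaffold Pdzk1 at 9.90 and 1.47 FPKM and the kinase Sgk1 at 134 and 62.3. The sodium/potassium ATPase, which maintains the sodium gradient that many carriers use, had 3 subunits or regulators higher and 3 lower of 7 in sorted cells, and 1 higher and 2 lower of 11 on induction. The pump subunit Atp1b1 was at 16.9 and 46.98 FPKM in sorted cells. The regulator Fxyd3 was at the lowest listed value in KLF3-GFP-negative and in GFP-OE cells. It was at 16.5 FPKM in KLF3-GFP-positive and 7.94 in KLF3-OE cells.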

How the data were processed

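RNA-seq libraries of 8 mESC samples in 4 groups of 2 were used. The authors made Smart-seq2 libraries from sorted cells and poly(A) libraries from induced cells. Per the submitters' processing notes, STAR 2.6.0, Cufflinks 2.2.1 and mm10 were used. The deposited FPKM values are the authors' means of 2 samples for protein-coding genes, rounded to 2 decimals and with a lowest value of 0.1. Depth per sample is not given in the sources used here, so no interval or limit was computed. The planned linear models could not be run on 1 mean per condition, and calls rest on fold size alone.

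Differences of log2(FPKM + 1) were taken, with a pseudocount of 1 FPKM, and a gene was called past 2-fold with a mean of at least 1 FPKM, exact 2-fold not included. The 2 tables were not combined. The calling step was tested on simulated data. Gene spans were read from the files in mm10, exon overlap from GENCODE M21 (190 of 190 genes matched, 4 sharing over 20% of exonic bases), and promoters from RefSeq GRCm38.p6. The 50 bases after each start were left out. Alternatives were a pseudocount of 0.1, a floor of 0.1, a mean of at least 5 FPKM, no minimum, median-ratio scaling, quantile normalization, removal of the trend on span (lowess fraction 0.3), and removal of the 4 symbols without a transporter. A minimum of 1 FPKM in both columns was added after the data were seen. Python 3.11.15, numpy 2.4.6, pandas 2.3.3, statsmodels 0.14.6 and matplotlib 3.10.9 were used.

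The carriers and all lists were chosen with earlier results of these data known. The rule for named genes took, in each experiment, the 12 largest rises and 12 largest falls past 2-fold, the largest difference in each family of at least 5, the 5 highest levels, every gene called in both experiments and landmark transporters; lists of other genes gave up to 4 names. Further carriers were named after their values were seen, and some genes that the rule takes are not reported here.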

Additional observations from a re-analysis of the deposited data

How the results depend on the processing

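Each condition had 1 mean without error, so the limits are the missing replicate check and unknown depth. No paired analysis was possible because the tables hold 1 mean per condition, and leaving out a replicate could not be done for the same reason. Among the genes that the naming rule took, none that was called changed sign in another setting. Other carriers were not checked for this. In sorted cells the 45 higher and 6 lower carriers became 55 and 12 with a pseudocount of 0.1, 56 and 13 with a floor of 0.1, 21 and 3 with a mean of at least 5 FPKM, and 29 and 3 with at least 1 FPKM in both columns, the last chosen after seeing the data. After induction the 6 higher and 12 lower became 10 and 29 with a pseudocount of 0.1, 11 and 32 with the floor, 2 and 7 with the mean of at least 5 FPKM, 10 and 9 with median-ratio scaling, and 8 and 4 with the span trend removed, and 2 were higher with at least 1 FPKM in both columns. Fewer genes were compared under the higher minimum and under that in both columns. A pseudocount or floor of 0.1 compares the same genes and can only enlarge a difference, so it can only add calls. For the remaining changes the cause was not tested. The other settings kept these counts within 1.5 times. The median of the carriers minus that of all genes stayed between 0.23 and 0.56 in sorted cells and between -0.04 and 0.08 after induction over the settings run. Over named genes and both experiments, calls were lost in 9 cases with the span trend removed, 6 with quantile normalization and 4 with median-ratio scaling.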
